A study of Mus musculus with 30 samples.

Results

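The genes of the retinoblastoma (pocket) proteins and of the DREAM complex were followed in mouse small intestine after deletion of one of them, Rb1. The 8 members are chosen by function: the pocket protein genes Rb1, Rbl1 (p107) and Rbl2 (p130), the MuvB core genes Lin9, Lin37 and Lin54, and the genes of 2 activators that join MuvB, Mybl2 (B-Myb) and Foxm1. The rule that names these genes uses no measured value, but they were chosen with earlier results of these data known. Each gene is represented by its probe set of highest mean over the arrays, which is a measured value. All 8 have a probe set of their own on the array and all 8 passed the filter on low values, among 14548 genes tested.

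Pocket proteins bind E2F transcription factors and hold back genes needed for DNA replication and mitosis. When a cell leaves the cycle, p130 or p107 joins E2F4 or E2F5, a DP protein and the MuvB core to form DREAM, which silences cell-cycle genes. When cyclin-dependent kinases phosphorylate the pocket proteins, DREAM comes apart, and MuvB then works with B-Myb and FoxM1 to activate the late genes of G2 and mitosis. In the intestine the crypts hold the dividing cells and the villi are lined by cells that have left the cycle.

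Total RNA from villi and from crypts of mice 2 months old was hybridised to expression arrays, 5 days after ablation. Deletion used an inducible Cre, Ah-cre. Controls, mice without Rb (Rb KO) and mice without Rb and Myc (Rb/Myc DKO, below DKO) gave 5 arrays each in both tissues, 30 arrays in 6 groups. The labels do not give the alleles or the treatment of the controls, and Rb1 is the gene that the labels call Rb. Each sample is a piece of tissue with many cell types, in which fewer cells of a type and less RNA per cell cannot be told apart. Since no label states that each replicate is its own animal, p-values measure the spread between these samples.

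Values are log2 expression, so a difference of 1 is a doubling. Differences are given as log2 ± SE and group levels as mean ± SD with n = 5. Every adjusted p is limma's, two-sided and adjusted by Benjamini-Hochberg over all genes tested, with a threshold of 0.05. A pair of arrays of one group correlated at 0.987 or more. The villus enterocyte markers stood at 14.30 to 14.47 on average in the villus arrays and at 12.26 to 13.36 in the crypt arrays, and the crypt markers at 7.99 to 10.30 and at 12.10 to 12.78. Both sets of markers were thus highest in the tissue named by the label. However, villi and crypts were taken as normalized apart, and their levels were not tested against each other.

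Rb1 itself checks the labels. In villi the control arrays stood at 9.14, 9.38, 10.21, 10.01 and 9.93, the Rb KO arrays at 8.34, 8.19, 8.30, 8.28 and 8.23, and the DKO arrays at 8.25, 8.66, 8.53, 8.39 and 8.52. In crypts the controls stood at 9.32, 9.63, 10.49, 10.37 and 9.76, the Rb KO arrays between 8.14 and 8.30 and the DKO arrays between 8.05 and 8.60. All control arrays lay above all arrays of both deleted groups in each tissue, and controls 1 and 2 were the lowest controls in both tissues. Rb1 fell by 1.46 ± 0.16 in Rb KO villi, to 36.3% of control (adjusted p = 6.99e-06). In crypts it fell by 1.68 ± 0.18, to 31.3% (adjusted p = 2.65e-05). Between DKO and Rb KO it differed by 0.20 (95% interval -0.14 to 0.54) in villi and by 0.06 (-0.33 to 0.45) in crypts. The place of the Rb1 probes relative to the deleted exons is not given in the sources used here. Myc, the second deleted gene, lay at 8.67 to 9.01 in DKO crypts and at 9.98 to 11.04 in Rb KO crypts, which do not overlap. In villi DKO (6.49 to 6.94) lay below Rb KO (6.98 to 7.48) too, while control villi (6.38 to 7.89) overlapped with both.

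Rbl1, the gene of p107 and a known E2F target, was the member that rose most. Control villi stood at 8.87, 9.04, 8.98, 9.06 and 9.24, Rb KO villi at 10.49, 10.04, 10.35, 10.16 and 10.20, and DKO villi at 10.11, 10.14, 10.04, 10.05 and 10.07. Both deleted groups lay wholly above the controls and overlapped with each other. Rbl1 rose by 1.21 ± 0.08 in Rb KO villi, 2.31-fold (adjusted p = 4.14e-08), and was 1.04 ± 0.08 above control in DKO villi (adjusted p = 3.51e-07). In crypts the control arrays held 9.68 to 9.81, the Rb KO arrays 10.23 to 10.31 and the DKO arrays 10.41 to 10.56, 3 groups without overlap. The rise in Rb KO crypts was 0.55 ± 0.05, 1.46-fold (adjusted p = 3.52e-06), and DKO crypts were a further 0.21 ± 0.05 higher (adjusted p = 0.00565). That further step rests on the probe set used. A second Rbl1 probe set above the filter, 1432604_at, gave the same rises in Rb KO (1.09 in villi, 0.55 in crypts) but -0.13 between DKO and Rb KO crypts (adjusted p = 0.569). The third, 1425166_at, gave a smaller difference of 0.24 in Rb KO villi (adjusted p = 0.0597) and 0.12 in Rb KO crypts (0.395), and 0.10 between DKO and Rb KO crypts (0.461).

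Of the members, 5 matched windows around the start of transcription in RefSeq (GRCm38.p6), each from 250 bases before to 50 after the start. The stretches below are shown because they hold the match nearest the start to an E2F-type motif, or, for Rbl2, to the cell-cycle homology motif, in genes whose RNA moved. Each is written 5′ to 3′ on the gene's strand with the match in capitals.

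Rbl1 (chr2:157204505-157204602, minus strand): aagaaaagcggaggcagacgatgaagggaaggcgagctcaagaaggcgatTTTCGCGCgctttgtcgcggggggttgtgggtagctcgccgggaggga
Mybl2 (chr2:163054572-163054664, plus strand): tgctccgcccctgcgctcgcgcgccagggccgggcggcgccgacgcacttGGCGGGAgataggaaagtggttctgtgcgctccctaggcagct
Lin37 (chr7:30559617-30559712, minus strand): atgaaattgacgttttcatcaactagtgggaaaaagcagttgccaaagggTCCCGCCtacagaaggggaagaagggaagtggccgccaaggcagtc
Lin54 (chr5:100498606-100498712, minus strand): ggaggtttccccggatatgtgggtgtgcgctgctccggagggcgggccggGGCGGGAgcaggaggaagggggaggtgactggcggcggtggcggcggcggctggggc
Rbl2 (chr8:91069807-91069911, plus strand): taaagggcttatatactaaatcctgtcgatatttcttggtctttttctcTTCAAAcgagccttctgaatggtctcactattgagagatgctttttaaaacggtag

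The Rbl1 window holds TTTCGCGC from base -18, one of 4 spellings searched on both strands (TTTCCCGC, TTTCGCGC, TTTGCCGC and TTTGGCGC) that 2.26% of 32851 windows of 300 bases hold. The shorter GGCGGGA, found in 11.3% of windows, lies at -13 in Mybl2, at -89 in the second of 2 Lin54 windows and, read on the other strand, at -16 in Lin37. The Rbl2 window holds neither. Its match at -201 is to TTTGAA on the other strand, which with TTCGAA is found in 19.2% of windows. Lin37 holds TTTGAA too, at -197. Lin54 holds it at 41 in its first window and at -162 in its second, which also has TTCGAA at 30. These matches lie outside the stretches printed. The motifs were chosen after these sequences were seen, and a match is a description of the letters only.

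**Figure D1:**
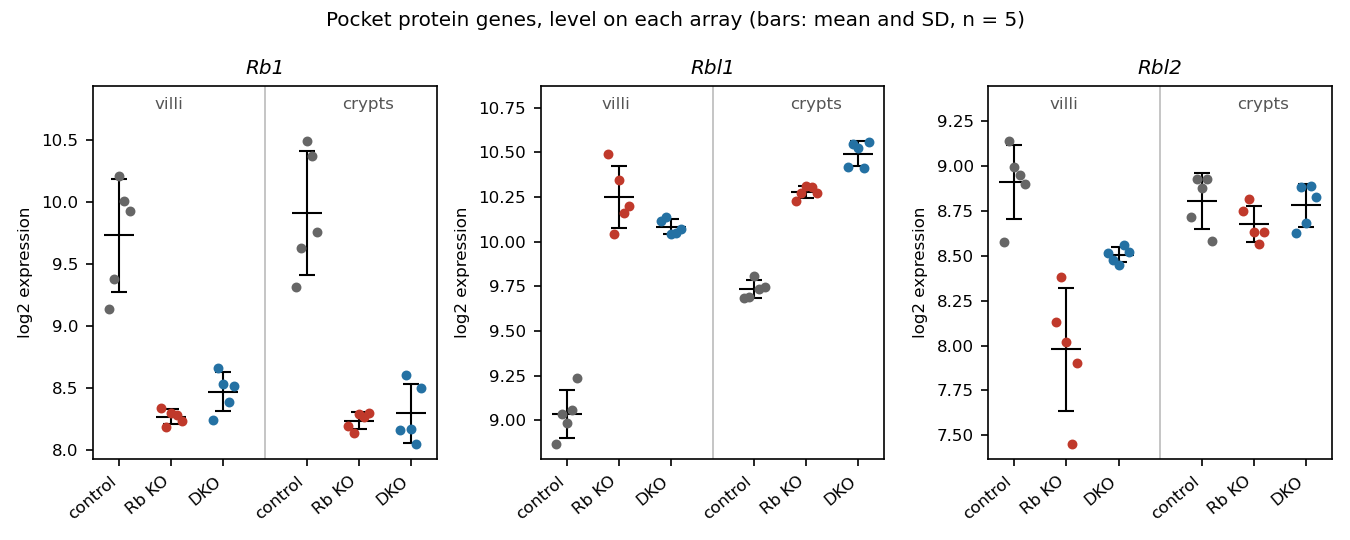
Log2 expression of Rb1, Rbl1 and Rbl2 on every array, in control (grey), Rb KO (red) and DKO (blue), villi left and crypts right of the line; bars are mean and SD of 5 arrays. Rb1 is low and Rbl1 high in all deleted arrays of both tissues, while Rbl2 is low in Rb KO villi (7.45 to 8.38), between the other groups in DKO villi, and overlaps in crypts.

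Rbl2, the gene of p130, the pocket protein of resting cells, moved the opposite way to Rbl1 in villi. Control villi stood at 8.58, 9.14, 8.99, 8.95 and 8.90, Rb KO villi at 8.13, 8.38, 8.02, 7.45 and 7.91, and DKO villi at 8.52, 8.48, 8.45, 8.56 and 8.52. The 3 groups did not overlap, with the DKO arrays just below the lowest control. Rbl2 fell by 0.93 ± 0.14 in Rb KO villi, to 52.4% of control (adjusted p = 9.51e-05), and was 0.53 ± 0.14 higher in DKO than in Rb KO villi (adjusted p = 0.0290). The difference of DKO from control villi was -0.41 ± 0.14 (adjusted p = 0.0503). In crypts the ranges overlapped (8.58 to 8.93 in control, 8.57 to 8.82 in Rb KO, 8.63 to 8.89 in DKO), and the 95% interval of Rb KO minus control was -0.29 to 0.04. A second probe set, 1418146_a_at, gave -0.90 for Rb KO and 0.53 for DKO against Rb KO in villi.

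T cell markers were also lower in Rb KO villi than in the other groups. Of 10 measured T cell markers, 8 fell in Rb KO villi, led by Itgae and Ptprc, where 15.8% of all genes were lower. In DKO against Rb KO villi 6 of the 10 were higher, against 5.9% of all genes. The mean level of the T cell markers spanned 10.57 to 11.23 in control villi, 9.99 to 10.68 after Rb loss and 10.81 to 11.10 in DKO. The Rb KO array with the lowest mean, replicate 4 at 9.99, also had the lowest Rbl2 (7.45), and the one with the highest, replicate 2 at 10.68, the highest Rbl2 (8.38). Over the 15 villus arrays, which were taken to share a normalization, Rbl2 correlated with that mean at r = 0.84, and at 0.75 after removal of genotype means. With the T cell mean as a covariate, chosen after the data were seen, the Rbl2 difference was -0.46 (adjusted p = 0.0754) for Rb KO against control, 0.02 (0.958) for DKO against Rb KO and -0.44 (0.00531) for DKO against control. The Rbl2 step from Rb KO to DKO also lost its call without Rb KO villi replicate 5 (0.51, adjusted p = 0.0589) or without any 1 of the DKO villi arrays (0.51 to 0.54, adjusted p 0.0526 to 0.0614).

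The same covariate left Rb1 at -1.57 (adjusted p = 0.00147) and Rbl1 at 1.21 (adjusted p = 5.47e-05) for Rb KO against control in villi, and moved the 5 smaller members out of the call. Lin9 became 0.46 (0.111), Lin37 0.34 (0.0580), Lin54 0.33 (0.406), Mybl2 0.12 (0.712) and Foxm1 0.23 (0.225). Without the covariate these differences were 0.84, 0.29, 0.41, 0.41 and 0.21, so those of Lin37 and Foxm1 lost the call without becoming smaller. The T cell means of DKO and control villi overlapped, and there 6 members were past the threshold with the covariate: Rb1, Rbl1, Rbl2, Lin9, Lin37 and Mybl2. The part of T cells in these differences was not tested further. Enteroendocrine markers moved too. In Rb KO villi 3 of 7 were lower (15.8% of all genes), and 4 of 7 were higher in DKO than in Rb KO villi (5.9%). In either comparison limma called 0 of 9 crypt markers, with 2 and 1 at an unadjusted p under 0.05. The crypt markers differed by a median of 0.55 between Rb KO and control villi, and their mean ran from 7.99 to 10.24 in control villi, from 8.81 to 10.10 after Rb loss and from 9.12 to 10.30 in DKO. With the crypt marker mean as a covariate 7 members were called in Rb KO villi. The difference between the 3′ and 5′ GAPDH probe sets, a sign of RNA integrity, averaged -0.14 in villi of controls, -0.05 in those of Rb KO and -0.09 in those of DKO mice. It ran from -0.211 to -0.112 in control villi, from -0.090 to 0.012 in Rb KO villi and from -0.108 to -0.067 in DKO villi. Control villi overlapped with neither deleted group, so RNA integrity and deletion cannot be told apart there. With the GAPDH difference as a covariate, chosen after the data were seen, 5 members were called in Rb KO villi. Its part in the result was not tested further. The shares of all genes called with these covariates are not given here.

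Of the MuvB core genes, Lin9 and Lin37 were higher in villi of both deleted groups and Lin54 in Rb KO villi. Lin9, which scaffolds the complex, stood at 5.15, 4.90, 4.89, 5.22 and 4.83 in control villi, at 6.07, 5.39, 5.60, 6.14 and 5.98 in Rb KO villi and at 5.34, 5.57, 5.62, 5.61 and 5.65 in DKO villi. No deleted array overlapped with control, and the Rb KO arrays were the most spread. In Rb KO villi Lin9 rose by 0.84 ± 0.13 (adjusted p = 1.79e-04), and it was 0.56 ± 0.13 above control in DKO villi (adjusted p = 0.00750). In crypts, where control held 6.64 to 7.05 and Rb KO 6.94 to 7.43, the rise was 0.33 ± 0.09 (adjusted p = 0.0237), and it lost the call without control replicate 1 (0.0518), Rb KO replicate 4 (0.0630) or Rb KO replicate 5 (0.0571). All control villus arrays of Lin9 lay below the cut of 5.33 that genes had to pass on their mean over all arrays, so no fold is given there. The other Lin9 probe set, 1443984_at, passed through its crypt levels only, with villus means of 4.91, 5.24 and 5.29 that are no check in villi, and gave 0.28 in Rb KO crypts (adjusted p = 0.116).

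Lin37, needed for DREAM to repress, stood at 8.60, 8.64, 8.51, 8.61 and 8.46 in control villi, at 8.998, 8.77, 8.90, 8.83 and 8.77 in Rb KO villi and at 8.84, 8.89, 8.83, 8.71 and 8.99 in DKO villi. Its deleted groups lay above control and on top of each other. In Rb KO villi Lin37 rose by 0.29 ± 0.07, 1.22-fold (adjusted p = 0.00316), and in DKO villi by the same 0.29 ± 0.07 (adjusted p = 0.00662). In crypts it differed by 0.17 ± 0.06 in Rb KO (adjusted p = 0.0949) and by 0.14 ± 0.06 in DKO (adjusted p = 0.115), with overlapping ranges.

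Lin54, the subunit that binds the cell-cycle homology motif, stood at 7.40, 7.76, 8.02, 7.72 and 7.67 in control villi, at 8.29, 7.79, 7.88, 8.33 and 8.32 in Rb KO villi and at 7.95, 8.21, 7.86, 8.14 and 8.35 in DKO villi. Control replicate 3 overlapped with both deleted groups. In Rb KO villi Lin54 rose by 0.41 ± 0.13 (adjusted p = 0.0291), and it differed by 0.39 ± 0.13 in DKO villi (adjusted p = 0.0593). In crypts, control held 8.91 to 9.12, Rb KO 9.10 to 9.55 and DKO 9.21 to 9.55, with rises of 0.33 ± 0.09 (adjusted p = 0.0260) and 0.31 ± 0.09 (adjusted p = 0.0219). In Rb KO villi the Lin54 call was lost without control 1 or 5 or Rb KO 1, 4 or 5 (0.33 to 0.40, adjusted p 0.0575 to 0.0760), and in Rb KO crypts without control 1, 2 or 5 or Rb KO 4 or 5 (0.28 to 0.32, adjusted p 0.0525 to 0.0744). In DKO crypts it was lost without control 1 (0.28, 0.0510) or DKO 2 (0.25, 0.0607), and in DKO villi the call was gained without control 3 (0.47, 0.0315) or DKO 3 (0.45, 0.0460). The other Lin54 probe set, 1458582_at, gave 0.25 in Rb KO villi (adjusted p = 0.0320) and 0.06 in DKO villi (0.652). In crypts it passed in neither group, with 0.15 in Rb KO (adjusted p = 0.303) and the opposite sign, -0.09, in DKO (0.510), so both Lin54 calls in crypts rest on the probe set used. The mean of both probe sets gave 0.11 in DKO crypts (adjusted p = 0.242).

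Mybl2, which replaces the pocket protein on MuvB in dividing cells, stood in control villi at 6.02, 5.49, 5.53, 5.73 and 5.83, in Rb KO villi at 5.996, 6.02, 5.90, 6.36 and 6.39 and in DKO villi at 5.92, 5.95, 6.11, 6.21 and 6.15. Control replicate 1 reached into the deleted groups, and the other controls lay below them. Mybl2 rose by 0.41 ± 0.12 in Rb KO villi, 1.33-fold (adjusted p = 0.0127), and by 0.35 ± 0.12 in DKO villi (adjusted p = 0.0496). The latter call was lost without any 1 of control 2 to 5 or DKO 2 to 5 (0.29 to 0.38, adjusted p 0.0567 to 0.126). In crypts, control held 7.83 to 8.20, Rb KO 8.01 to 8.28 and DKO 7.91 to 8.28, and neither difference passed (0.19 ± 0.09, adjusted p = 0.208, and 0.16 ± 0.09, adjusted p = 0.220). A second probe set, 1454946_at, lay below the filter in villi (means 5.13, 5.29 and 5.24) and gave 0.38 in DKO against control crypts (adjusted p = 2.48e-04).

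Foxm1, the activator of late mitotic genes, had the smallest rise of the members in Rb KO villi on the probe set used. Control villi stood at 7.72, 7.65, 7.45, 7.71 and 7.62, Rb KO villi at 7.71, 7.96, 7.90, 7.79 and 7.84, and DKO villi at 7.49, 7.65, 7.71, 7.67 and 7.71. The difference was 0.21 ± 0.07 in Rb KO villi (adjusted p = 0.0296) and 0.02 ± 0.07 in DKO villi (adjusted p = 0.880). The first of these calls was lost without control 3 (0.16, 0.0857), control 5 (0.21, 0.0560), Rb KO 2 (0.18, 0.0690) or Rb KO 3 (0.19, 0.0644). In crypts, control held 8.47 to 8.70, Rb KO 8.70 to 8.86 and DKO 8.77 to 9.10, with differences of 0.19 ± 0.07 in Rb KO (adjusted p = 0.103, groups not overlapping) and 0.29 ± 0.07 in DKO (adjusted p = 0.00664).

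Another Foxm1 probe set above the filter, 1448834_at, moved further. It held 5.69 to 6.23 in control villi, 6.64 to 7.20 in Rb KO villi and 6.20 to 6.92 in DKO villi, so that Rb KO stood clear of control and DKO overlapped with both. It rose by 0.87 ± 0.15 in Rb KO villi (adjusted p = 4.56e-04), 0.56 ± 0.15 in DKO villi (0.0174), and in crypts by 0.33 ± 0.10 after Rb loss (0.0388) and 0.55 ± 0.10 in DKO (8.41e-04). The remaining Foxm1 probe set above the filter, 1417748_x_at, moved less than 1448834_at. Its means in control, Rb KO and DKO were 7.33, 7.61 and 7.40 in villi and 8.24, 8.44 and 8.54 in crypts. The size of the Foxm1 response therefore depends on the probe set.

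**Figure D2:**
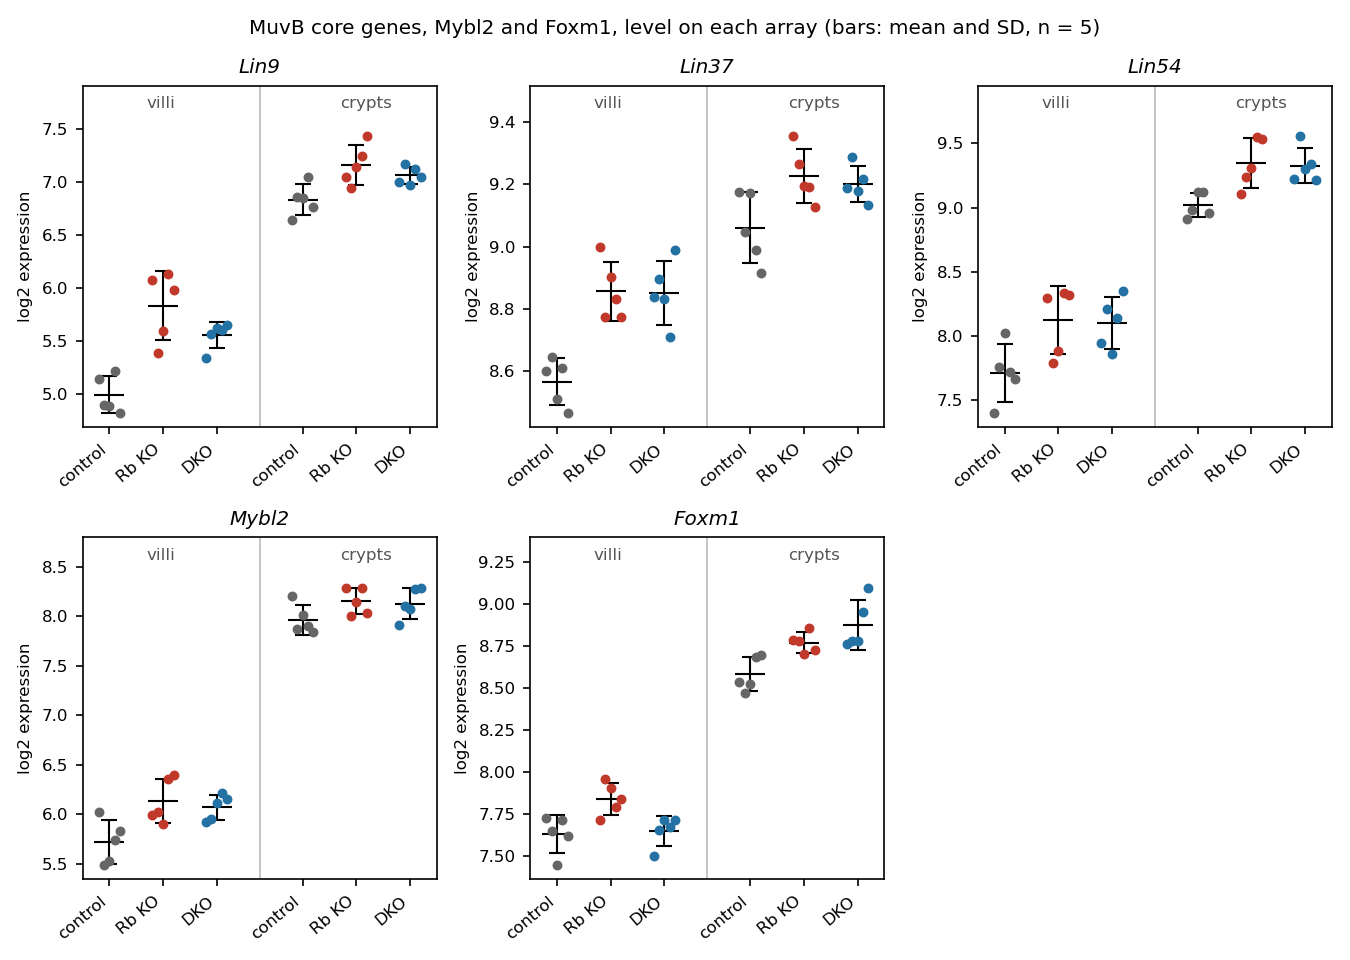
Log2 expression of Lin9, Lin37, Lin54, Mybl2 and Foxm1 on every array (grey control, red Rb KO, blue DKO; villi left, crypts right; bars are mean and SD of 5 arrays; each gene has its own axis, which does not start at 0). In villi the Lin9 and Lin37 arrays of both deleted groups lie above all controls, while 1 control array each of Lin54 and Mybl2 reaches into the deleted groups. The Foxm1 controls in villi (7.45 to 7.72) cover the range of DKO (7.49 to 7.71).

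Counted over the family, Rb loss moved all 8 members in villi: 6 were higher and Rb1 and Rbl2 lower. Rb1 is the deleted gene, so its fall in this and the following counts against control comes from the design. In that comparison 30.5% of all genes tested were past the threshold, 14.7% higher and 15.8% lower. The median difference was 0.35 for the members and -0.02 for all genes. The arrays of Rb KO and control did not overlap for Rbl1, Lin9 and Lin37 (higher) and Rb1 and Rbl2 (lower), against 9.88% and 8.81% of all genes. In crypts 4 members were called, Rbl1, Lin9 and Lin54 higher and Rb1 lower, against 10.3% of all genes (7.33% higher, 2.97% lower). Their median difference was 0.19, and -0.0030 over all genes.

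The DKO groups, compared with the same control arrays, called 5 members in villi (Rbl1, Lin9, Lin37 and Mybl2 higher, Rb1 lower; 17.1% of all genes, 11.3% higher and 5.78% lower) and 4 in crypts (Rbl1, Lin54 and Foxm1 higher, Rb1 lower; 20.2%, 11% higher and 9.19% lower). Between DKO and Rb KO, 1 member was called in each tissue, Rbl2, higher, in villi (7.83% of all genes, 5.9% higher and 1.92% lower) and Rbl1, higher, in crypts (12.4%, 5.17% higher and 7.22% lower). A count of 1 in 8 is near those shares. Markers of other cells moved in crypts as well. T cell markers were higher in DKO than in control crypts (4 of 10 called, median 0.51; mean 7.81 to 8.27 against 7.42 to 7.89), and with their mean as covariate the Lin54 difference was 0.23 (adjusted p = 0.289), Foxm1 0.43 (0.00436) and Rbl1 0.80 (1.34e-05). Between DKO and Rb KO crypts 3 of 9 crypt markers (median 0.32) and 2 of 10 T cell markers (median 0.39) were higher, and the Rbl1 step was 0.24 with either mean as covariate (adjusted p = 0.0170 and 0.0223). With the crypt marker mean, the Rb KO crypt differences of Lin9 and Lin54 were 0.28 (adjusted p = 0.105) and 0.23 (0.145). For the other members the intervals of DKO minus Rb KO in villi bound the step that goes with Myc loss: -0.34 to 0.01 for Rbl1, -0.56 to 0.0020 for Lin9, -0.14 to 0.14 for Lin37, -0.31 to 0.26 for Lin54, -0.31 to 0.18 for Mybl2 and -0.34 to -0.05 for Foxm1, whose adjusted p was 0.102.

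**Figure D3:**
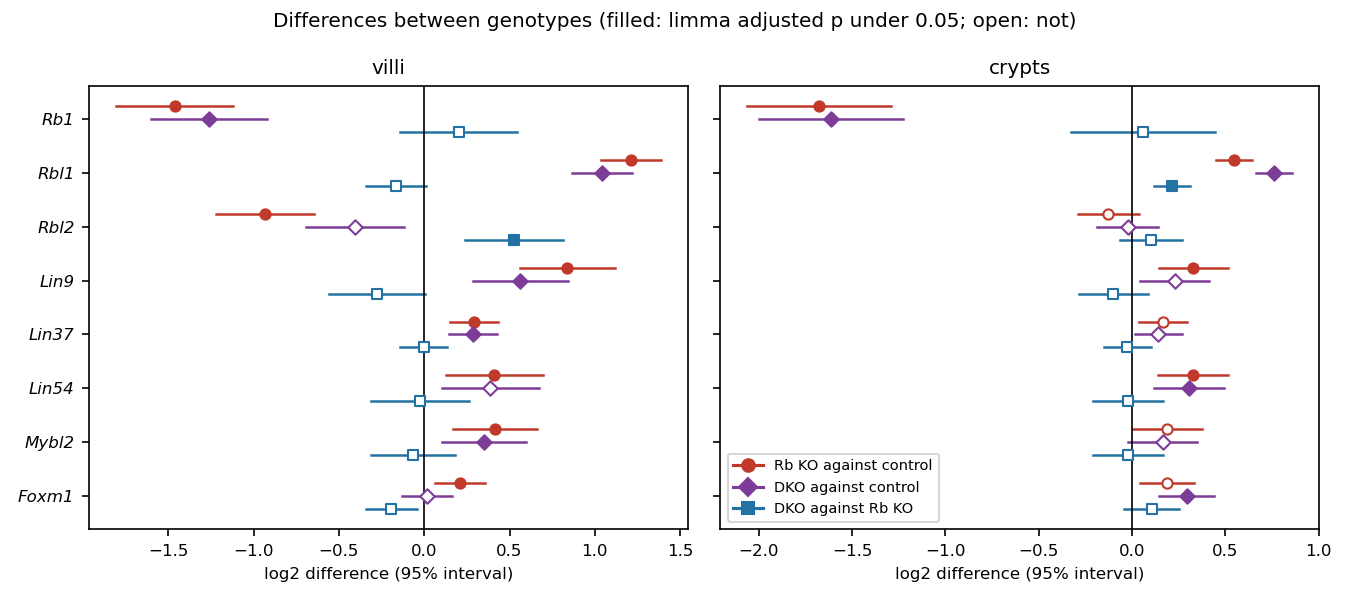
Differences between genotypes for the 8 members in villi (left) and crypts (right), on the log2 scale with 95% intervals; filled symbols passed the adjusted threshold of 0.05 and open ones did not. Red circles (Rb KO against control) and violet diamonds (DKO against control) lie on the same side of 0 for every member, and of the blue squares (DKO against Rb KO) Rbl2 in villi at 0.53 and Rbl1 in crypts at 0.21 are filled.

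Whether Rb loss acted differently in the tissues was tested as the difference of the within-tissue differences. This fit took the villus and crypt arrays of 1 animal as independent. With the animal as a block, the calls of Rbl1, Lin9 and Rbl2 given here were kept. Rbl1 rose 0.66 ± 0.09 more in villi than in crypts (adjusted p = 1.29e-05), Lin9 rose 0.51 ± 0.16 more (adjusted p = 0.0346), and Rbl2 changed by -0.81 ± 0.16 (adjusted p = 0.00113), so 3 of 8 members against 13.7% of all genes (6.76% higher, 6.98% lower). The Rbl1 value was 0.54 (0.0454) on 1432604_at and 0.12 (0.571) on 1425166_at. The Lin9 value rests on control villi below the filter, and it lost the call without control villi 2, 3 or 5, Rb KO villi 1, 4 or 5, control crypts 4 or Rb KO crypts 1, 2 or 3 (0.44 to 0.51, adjusted p 0.0533 to 0.0766). With the T cell mean as covariate Rbl1 kept 0.64 (adjusted p = 0.00101), while Rbl2 became -0.53 (0.0995) and Lin9 0.38 (0.355). For Rb1, Lin37, Lin54, Mybl2 and Foxm1 the intervals included 0.

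The step from Rb KO to DKO differed between the tissues for Rbl1 (-0.38 ± 0.09, adjusted p = 0.0227; 1 of 8 members against 3.4% of all genes, 2.29% higher and 1.11% lower). With the animal as a block, since the villus and crypt arrays of equal genotype and number varied together, 3 members were called: Rbl1 (adjusted p = 0.00570), Foxm1 (-0.30, adjusted p = 0.0254) and Rbl2 (0.42, adjusted p = 0.0469). Without the block Foxm1 had an adjusted p of 0.0768 and Rbl2 of 0.133. This Rbl1 call rests on the probe set used. The value was -0.06 (0.892) on 1432604_at, 0.017 (0.955) on 1425166_at and -0.14 (0.261) for the mean of all probe sets.

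Each member but Lin37 has more than 1 probe set, 19 in all. Of the 8 others above the filter, 8 had the sign of the probe set used in Rb KO against control villi and 6 passed the threshold, although Lin9 1443984_at and Mybl2 1454946_at lie below the filter in villi. In crypts 8 had the same sign and 2 passed. The 3 below the filter were Rb1 1444400_at (mean 4.42), Rbl1 1454293_at (4.53) and Foxm1 1437138_at (3.52), and none of them passed in Rb KO against control.

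**Figure D4:**
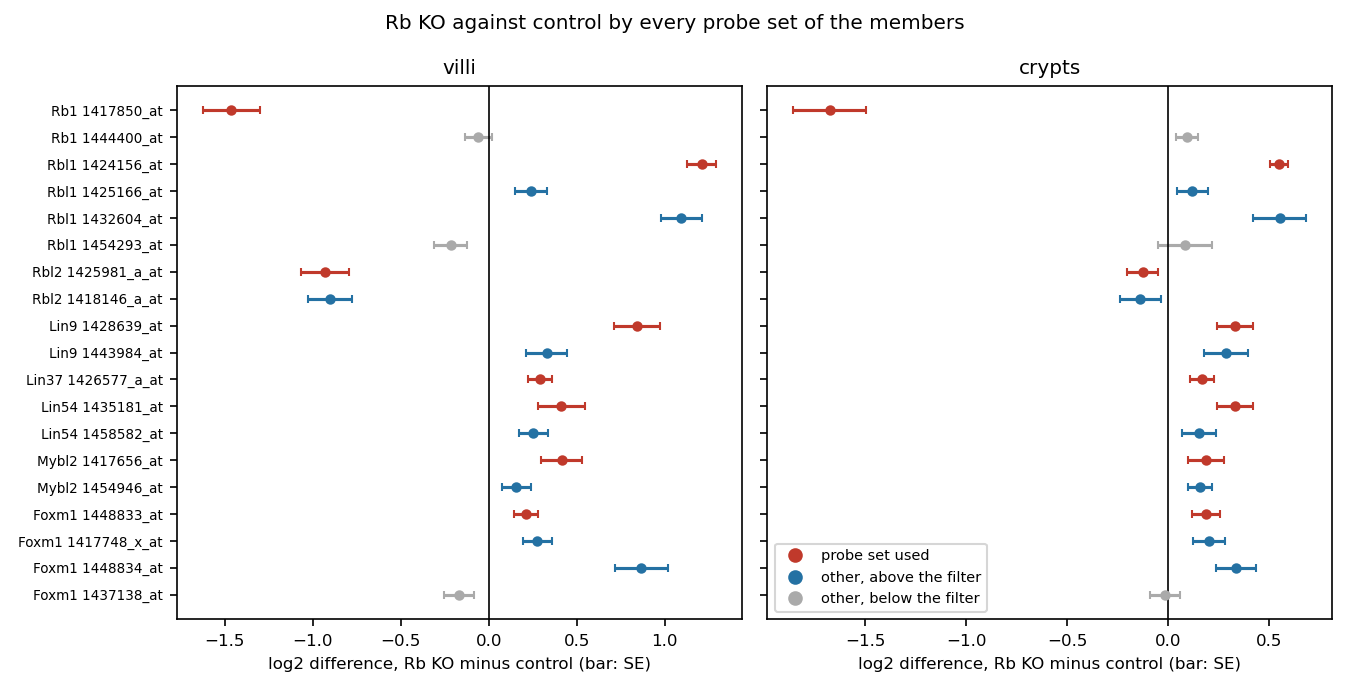
Rb KO minus control for all 19 probe sets of the members, log2 with SE, villi left and crypts right; red is the probe set used, blue another above the filter and grey one below it. Blue points lie on the side of the red point of the same gene in both tissues, and the grey points lie between -0.22 and 0.09.

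Around these genes, the partners that complete DREAM changed in part. This list and those below were chosen with earlier results of these data known. Beside their counts, 14.7% of all genes were higher and 15.8% lower in Rb KO villi, and 7.33% and 2.97% in Rb KO crypts. Between DKO and Rb KO, 5.9% of all genes were higher and 1.92% lower in villi, and 5.17% and 7.22% in crypts. Of 7 measured partners, 3 rose in Rb KO villi, Rbbp4, a histone-binding MuvB subunit (1.10 ± 0.09, adjusted p = 3.35e-07), Tfdp1, a DP subunit of E2F (1.49 ± 0.12, 3.92e-07), and Tfdp2 (0.41 ± 0.12, 0.0154). In Rb KO crypts Rbbp4 (0.35 ± 0.05, 6.33e-04) and Tfdp1 (0.33 ± 0.06, 0.00195) rose. The median partner difference was 0.16 in villi and 0.06 in crypts. Between DKO and Rb KO, Lin52, the MuvB subunit that meets the pocket protein, was lower in villi (-0.24 ± 0.06, 0.0331), as was E2f5 (-0.24 ± 0.07, 0.0490), while in crypts E2f5 was higher (0.19 ± 0.06, 0.0426) and Dyrk1a, the kinase that promotes DREAM assembly, lower (-0.23 ± 0.07, 0.0403).

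The other E2F genes moved together. All 6 rose in Rb KO villi, with E2f7, a repressor of E2F targets, at 3.64 ± 0.25 (adjusted p = 4.14e-08), E2f1 at 1.62 ± 0.16 (1.94e-06) and E2f8 at 2.56 ± 0.26 (3.24e-06). The control villus mean of E2f7, 5.26, lay below the filter. In Rb KO crypts 4 of 6 rose, led by E2f1 (0.69 ± 0.08, 4.37e-05), E2f7 (1.01 ± 0.12, 6.76e-05) and E2f8 (0.61 ± 0.09, 6.79e-04). Between DKO and Rb KO 0 of 6 passed limma's threshold in either tissue (1 in villi and 0 in crypts at an unadjusted p under 0.05), and the smallest adjusted p among them was 0.167 in villi and 0.285 in crypts.

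Among 9 cyclins and kinases that phosphorylate pocket proteins, 6 rose in Rb KO villi, with the cyclin E genes Ccne2 (3.56 ± 0.18, adjusted p = 3.14e-09) and Ccne1 (2.46 ± 0.13, 4.12e-09) and their kinase Cdk2 (2.17 ± 0.13, 1.62e-08) first. In Rb KO crypts 4 rose, led by Ccne2 (1.61 ± 0.13, 3.26e-06), the cyclin D gene Ccnd3 (0.57 ± 0.05, 6.83e-06) and Ccne1 (1.44 ± 0.14, 6.99e-06), and 3 fell, Ccnd2, Cdk6 and Ccnd1. Ccnd2 was higher in DKO than in Rb KO in both tissues (1.13 ± 0.23 in villi, 0.00926; 1.88 ± 0.14 in crypts, 2.12e-06), and Ccnd1 was lower in DKO crypts (-0.92 ± 0.12, 1.24e-04).

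Of 6 measured CDK inhibitor genes, 3 rose and 1 fell in Rb KO villi, and 4 rose and 1 fell in crypts. Cdkn2c (p18) led in villi (2.29 ± 0.13, adjusted p = 7.11e-09) and Cdkn1a (p21) in crypts (1.06 ± 0.13, 7.68e-05). Cdkn1b (p27), the inhibitor of resting cells, fell in Rb KO villi (-0.86 ± 0.16, 6.93e-04) and crypts (-0.85 ± 0.19, 0.00920), and was higher in DKO than in Rb KO in both (1.17 ± 0.16, 8.59e-04; 1.17 ± 0.19, 9.13e-04).

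The genes that DREAM and E2F are known to control stood higher after Rb loss. Of 30 measured G1/S genes, 29 rose in Rb KO villi with a median of 2.27, among them Pcna, the replication clamp (2.22 ± 0.09, adjusted p = 1.17e-09), and 27 rose in crypts with a median of 0.52. Of 37 measured G2/M genes, 35 rose in Rb KO villi with a median of 1.67, led by Cdc25b, a phosphatase that activates Cdk1 (1.82 ± 0.17, 1.54e-06), and 19 in crypts with a median of 0.27. In DKO against control the counts were 29 and 26 in villi and 27 and 34 in crypts, where 11.3% and 11% of all genes were higher. Between DKO and Rb KO, 1 G1/S gene was lower in each tissue (Fen1 in villi, Mcm6 in crypts), against 1.92% and 7.22% of all genes. A count of 1 in 30 is near the first share and below the second. Of the 30, 14 in villi and 3 in crypts had an unadjusted p under 0.05, with medians of -0.29 and 0.03. In crypts 4 of 37 G2/M genes were higher (5.17% of all genes), Cdca3, Ccnb2, Cenpa and Ube2c. In villi the G2/M genes differed by a median of -0.58 between DKO and Rb KO, against -0.0051 for all genes, and 0 of 37 passed limma's threshold, with 17 at an unadjusted p under 0.05. With the T cell mean as a covariate the G1/S count in Rb KO villi was 28 and the G2/M count 5.

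**Figure D5:**
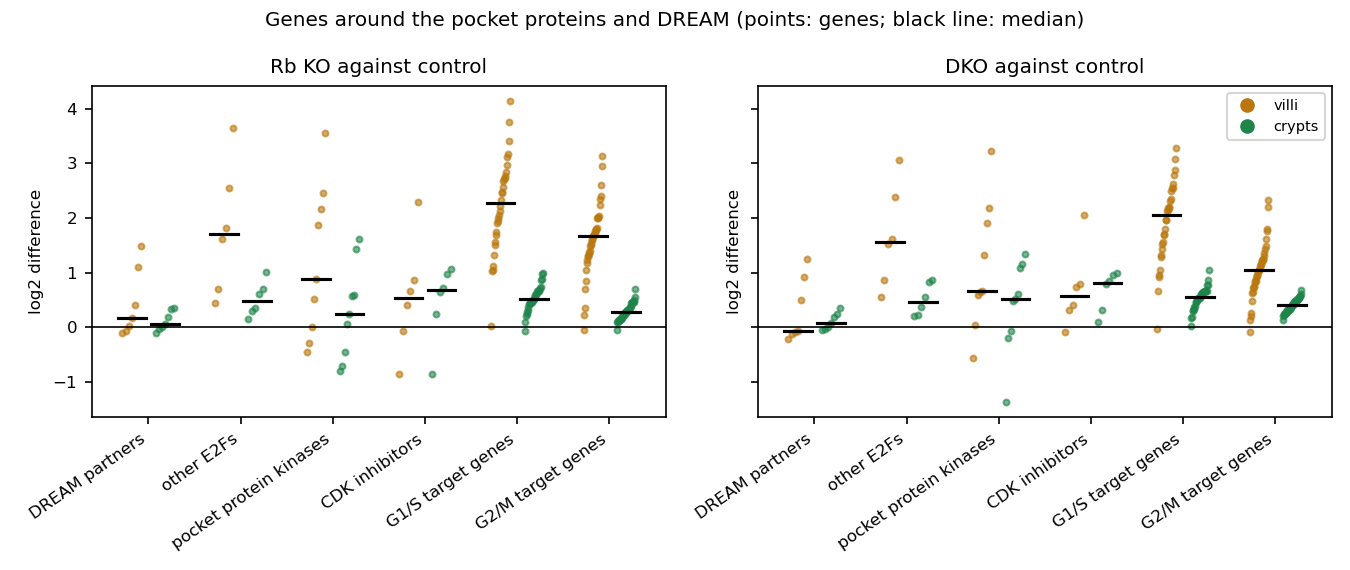
Difference from control, log2, of each measured gene in 6 lists around the pocket proteins, for Rb KO (left) and DKO (right), villi in ochre and crypts in green; the black line is the list's median. The G1/S and G2/M targets and the other E2Fs lie above 0 in both tissues and reach higher in villi, with medians of 2.27, 1.67 and 1.71 in Rb KO villi.

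The genes whose pattern over arrays was most like a member's were ranked by the smaller of the Pearson correlations over 15 villus and 15 crypt arrays. The arrays of a tissue share genotype groups and were taken to share a normalization. For Rbl1 the closest genes were Tpm4 (0.97 in villi, 0.97 in crypts), Cdkn2c (0.96, 0.96) and Rell1 (0.98, 0.96). For Lin9 they were Trim59 (0.92, 0.88), Kpna2 (0.87, 0.93) and Actl6a (0.92, 0.87). Rb1 was closest to Tfpi, Smim13 and Tmem230 (0.86 to 0.93), Rbl2 to Ext2, Zfp36l1 and Calcoco1 (0.80 to 0.83), and Foxm1, with the lowest values, to Fanci, Mllt1 and Mxd3 (0.74 to 0.79). Lin37 was closest to Ric8b, Lin54 to Hemgn and Mybl2 to Rhno1.

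Among the members themselves, correlations after removal of genotype means were highest for Lin9 with Lin54 in crypts (0.78 over 15 arrays; 0.49 in villi). Rbl1 and Rbl2 correlated at 0.0060 in crypts and at 0.16 in villi. Lin9 and Mybl2 correlated at 0.57 in villi and at -0.14 in crypts. These are descriptions of 15 arrays of each tissue.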

How the data were processed

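The 8 members and the lists were chosen with earlier results of these data known. The authors deposited log2 expression values of 45101 probe sets on 30 arrays, per the file headers. Normalization and summarization are not given in the sources used here. Arrays of one tissue shared 285 to 596 identical values and arrays of different tissues at most 1, so villi and crypts were taken as normalized separately and levels were not tested across them.

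Symbols came from the platform's annotation, in which 34958 probe sets have 1 symbol, 932 several and 9211 none. Each of 18194 genes was represented by its probe set of highest mean over the arrays, and the 14548 with a mean above the 30th percentile of all probe sets (5.33) were tested. limma 3.58.1 in R 4.3.3 was fitted over the 15 arrays of a tissue, and interactions over all 30. The fits were tested on simulated data. Named genes are all members, up to 3 genes of each list in order of p, and the 3 genes of most similar pattern; G2/M genes higher in DKO crypts and the kinases and Cdkn1b beyond those 3 were named after their values were seen. The list of MYB relatives held 1 tested gene, Myb (1.06, adjusted p = 0.0880 in Rb KO villi; -0.08, 0.565 in crypts). A villus array and the crypt array of equal genotype and number varied together around their group means in 15 of 15 cases (r 0.246 to 0.560), and each such pair was taken as 1 animal. Alternatives were other probe set rules, filters, normalizations, arrays in the fit, limma settings, blocks, covariates and leaving out arrays. Some genes of the lists were not analysed here. Of the marker lists, B and plasma cell markers had 1 of 6, goblet markers 1 of 6, stroma markers 0 of 5 and smooth muscle markers 0 of 4 past the threshold in Rb KO villi.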

Additional observations from a re-analysis of the deposited data

Results flagged for a closer look

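Rbl1 (0.66), Rbl2 (-0.81) and Lin9 (0.51) differed between villi and crypts in the effect of Rb loss, and Rbl1 (-0.38) in the step from Rb KO to DKO, by the interaction test over all arrays. The Rbl1 value of -0.38 rests on the probe set used. DKO villi replicate 1 stood apart from its group for Lin9 (5.34 against 5.57 to 5.65) and for Foxm1 (7.49 against 7.65 to 7.71). These were 2 of 48 groups examined for a single array far from the rest, a check that chance meets in about 1 of 20 groups.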

How the results depend on the processing

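Over the settings other than leaving out 1 array, 949 of 1056 member values kept their direction and side of the threshold, 72 lost the call, 24 gained it and 11 reversed. Of 800 values without 1 array, 753 kept both. A further 74 of 1022 differences past the threshold in neither setting changed sign. All reversals came from other probe sets. For Rbl1, 1454293_at gave -0.22 in Rb KO and -0.18 in DKO against control villi and -0.30 for the Rb loss effect between tissues, 1432604_at -0.13 in DKO against Rb KO crypts and 1425166_at 0.017 for the Myc loss effect between tissues. For Foxm1, 1437138_at gave -0.17 in Rb KO villi and -0.0044 in DKO crypts, both against control. Rb1 1444400_at gave 0.091 in Rb KO against control crypts and -0.22 in DKO against Rb KO crypts, Lin54 1458582_at -0.092 in DKO against control crypts, and Mybl2 1454946_at 0.22 in DKO against Rb KO crypts.

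Members called in Rb KO against control villi fell from 8 to 5 without Rb KO animals 4 and 5, to 5 with the GAPDH covariate, to 5 at an adjusted p of 0.01 and to 2 with the T cell covariate. In Rb KO crypts 4 became 2 in the fit of all 30 arrays, 2 with the crypt marker covariate, 2 without Rb KO animals 4 and 5 and 2 at 0.01. In DKO against Rb KO villi 1 became 2 with the crypt marker covariate and 0 without Rb KO animals 4 and 5, with the T cell covariate and at 0.01, and in crypts 0 with the mean of probe sets. Between tissues, the Rb loss count of 3 became 1 with the T cell covariate, and the Myc loss count of 1 became 2 with quantile normalization, 3 with the animal as a replicate block, and 0 with the mean of probe sets, the GAPDH covariate or 0.01. Without 1 array each, the DKO against Rb KO villi count ran from 0 to 1 and the Rb KO crypts count from 2 to 4. The GAPDH and T cell covariates were chosen after the data were seen. Shares of all genes called in these settings are not given here, so a change in the members cannot be told from a general one. The causes were not tested.

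Between genotypes of villi, 7 of 15 cases correlated best with their own replicate number (median r 0.18). In crypts 4 of 15 did (median r -0.0090). The main fits did not use the number as a block, and whether it marks a shared factor in villi was not tested. The number of arrays limits the precision.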
